A study of Mus musculus with 3 samples.

Results

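Mural cells, the pericytes and smooth muscle cells that wrap small blood vessels, were sought in single-cell counts of the early postnatal mouse cortex. A barcode was kept when it had at least 1000 detected genes and under 10% of its UMIs (unique molecular identifiers, one for each captured transcript) in mitochondrial genes. A kept cell was a rule member when it had a UMI of Pdgfrb and of at least 2 of the 6 markers Rgs5, Vtn, Kcnj8, Higd1b, Acta2 and Myl9, and no UMI of the endothelial gene Cldn5 or the microglial gene C1qa. The rule found 644 members among 36295 kept cells: 94 of 9961 in control cells, 228 of 13199 in Emx1-Cre cells and 322 of 13135 in hGFAP-Cre cells. Since these genes chose the cells, their own levels are given as a description.

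Pericytes sit in the basement membrane of capillaries, in contact with the endothelium, and smooth muscle cells coat the larger vessels. Endothelial cells release PDGF-B, and mural cells carry its receptor, Pdgfrb, which signals in part through RAS, RAF, the MEK kinases and ERK and which recruits pericytes to growing vessels. Forebrain mural cells are known to come largely from the neural crest, whereas Emx1-Cre acts mainly in dorsal telencephalic progenitors and hGFAP-Cre mainly in radial glia and their progeny. Brain pericytes build collagen IV and laminin layers and can release chemokines that attract leukocytes.

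The study compared 3 genotypes with 1 library each, so no test between genotypes was possible and no p-value is given. The control (genotype label WT) carried floxed Map2k1 and Map2k2 per the protocol, the genes of the kinases MEK1 and MEK2. The Emx1-Cre mutant (label EMX-Cre_MAP2K1/2-dcko) and the hGFAP-Cre mutant (label hGFAP-Cre_MAP2K1/2-dcko) carried a Cre that deletes both genes in the cells where its promoter is active. In all groups the division-tracing dye FlashTag (CellTrace Yellow) was put into the lateral ventricle at embryonic day 18. Dorsal cortex was taken at postnatal day 2, digested with papain and sorted for tdTomato. The labels do not name the allele that carries tdTomato, the number of pups or their sex, and the gene list has no entry for Cre or tdTomato, so recombination in the members was not measured. Xist stood at 1470 CPM (UMI counts scaled to a common total) in kept cells of the control and below 1 CPM in both mutants, and Ddx3y at 0 in the control, so sex and genotype cannot be told apart.

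Depth differed in ways that touch every share below. The libraries held 84016524 to 89917586 UMIs over 11886 to 13214 barcodes, and the median kept cell had 5306 to 6533 UMIs. The barcode with the fewest UMIs had 500 in control cells, 2644 in Emx1-Cre cells and 3065 in hGFAP-Cre cells, so barcodes under 2644 UMIs are present in the control only. Of kept barcodes, 124 were shared between 2 libraries, 8 of them a member in one library, and none a member in both.

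The members were split by 4 of the rule's own markers, and Abcc9, a gene outside the rule, was then looked at. The split itself is therefore not an independent check of the label. Of the 644, 354 had a UMI of at least 2 of the 4 pericyte genes Rgs5, Vtn, Kcnj8 and Higd1b, and these are called pericyte-marker members here. They numbered 37 in control cells, 203 in Emx1-Cre cells and 114 in hGFAP-Cre cells. Abcc9, which encodes the SUR2 subunit that pairs with Kcnj8 in a potassium channel of pericytes, had a UMI in 91.9%, 92.6% and 98.2% of them, against 0.116%, 0.259% and 0.0852% of cells with both Neurod6 and Neurod2 (excitatory neurons). Those neurons had a median of 6080, 3830 and 4445 UMIs, and the pericyte-marker members 6328, 4869 and 4517.5. The remaining 290 members, 57, 25 and 208 by library, mostly carried glial genes and are described last under the name other members. The comparisons below are over pericyte-marker members, a set that was one of several readings of the rule at first and was put in front after the values had been seen.

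The number of markers held separates the 2 kinds. In the control, 57 members held exactly 2 markers, 1 held 3, and 36 held 4 to 6. In the hGFAP-Cre library 202 held 2, 9 held 3, and 111 held 4 to 6, and in the Emx1-Cre library the counts were 18, 14 and 196. Just inside the threshold, with 2 markers, Pdgfrb stood at 166 CPM in control cells, 188 in Emx1-Cre cells and 114 in hGFAP-Cre cells, and Slc1a3, the glial glutamate transporter, had a UMI in 100%, 50% and 97.0% of the cells. Just outside it, with 1 marker beside Pdgfrb, there were 360, 19 and 405 cells, with Pdgfrb at 153, 204 and 157 CPM and Slc1a3 in 100%, 68.4% and 98.8%. In the control and the hGFAP-Cre library the cells on both sides of the threshold were alike in this, with Slc1a3 in nearly all and little Pdgfrb.

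Both mutant libraries held a larger share of pericyte-marker members than the control. They made up 0.371% of kept cells in control cells (exact 95% interval 0.262 to 0.512), 1.54% in Emx1-Cre cells (1.34 to 1.76) and 0.868% in hGFAP-Cre cells (0.716 to 1.04). The 3 intervals did not overlap, and the shares were 4.14-fold and 2.34-fold that of the control. Over all rule members the order of the mutants was the other way round, at 0.944%, 1.73% and 2.45%. Endothelial cells, picked by a UMI of Cldn5 and of at least 2 of 5 other endothelial genes without Pdgfrb, stood at 0.944%, 0.318% and 0.343%, lower in both mutants, and microglia, picked likewise by C1qa, at 2.75%, 2.10% and 2.70%. There were 0.394 pericyte-marker members for each endothelial cell in control cells, 4.83 in Emx1-Cre cells and 2.53 in hGFAP-Cre cells. All these shares are of cells that passed dissociation, the tdTomato gate and cell calling, whose part in them was not tested, and intervals here and below cover counting error only.

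**Figure D1:**
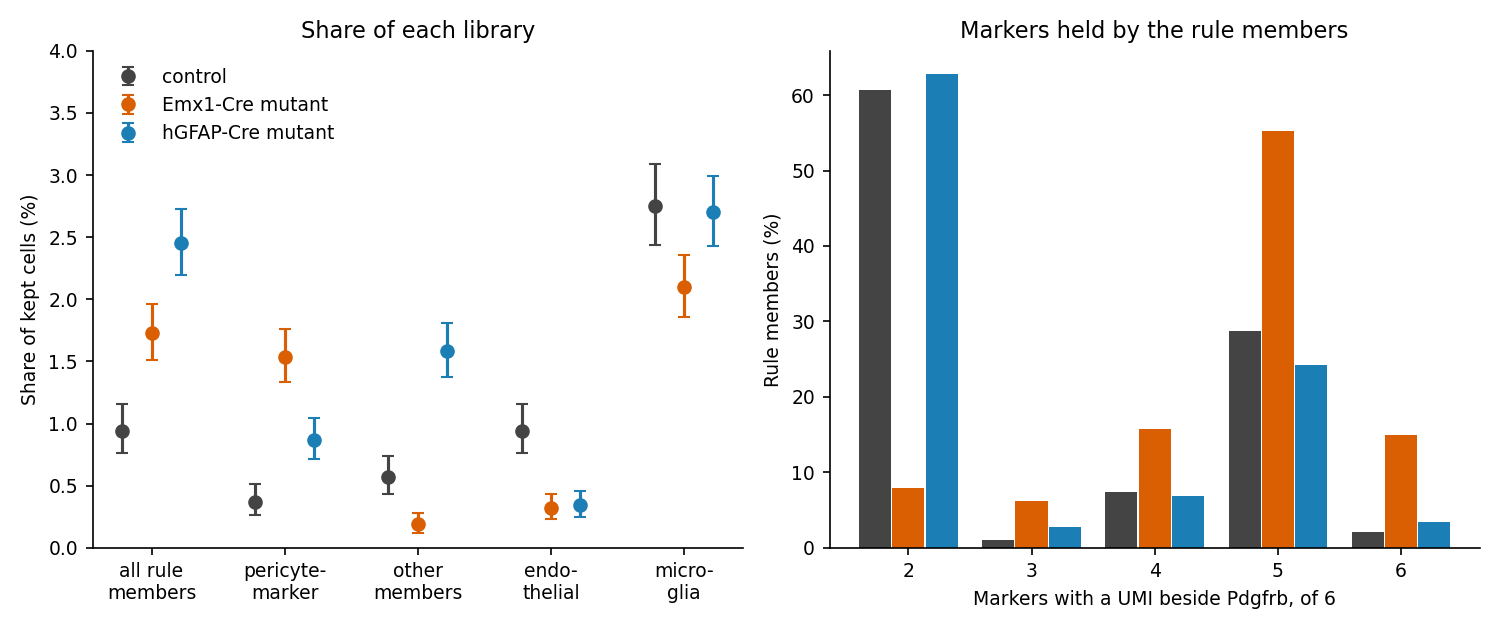
Left: share of kept cells (%, with exact 95% intervals) for rule members, pericyte-marker members, other members, endothelial cells and microglia in each of the 3 libraries. Right: percent of rule members holding 2 to 6 of the 6 markers. Pericyte-marker members stand at 0.371%, 1.54% and 0.868%, and the members of the control and hGFAP-Cre libraries fall into a group at 2 markers and a group at 4 to 6.

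Gene levels are UMIs summed over the cells of a set, scaled to CPM over that set, with exact Poisson 95% intervals. The pericyte-marker members summed to 262604 UMIs in control cells, 1234845 in Emx1-Cre cells and 698982 in hGFAP-Cre cells, so that 1 UMI is 3.81, 0.810 and 1.43 CPM. A gene was compared when it reached 50 CPM in either library, and it was called higher or lower when its ratio, with 5 CPM added to both levels, was at least 2-fold and its intervals lay apart. In the Emx1-Cre mutant over the control 206 of 3925 genes were called higher, 5.25%, and 504 lower, 12.8%, with a median log2 ratio of -0.20. In the hGFAP-Cre mutant over the control 224 of 4077 were higher, 5.49%, and 359 lower, 8.81%, with a median of -0.08. The mutants differed less from each other, with 107 of 3592 genes higher in the hGFAP-Cre mutant, 2.98%, and 106 lower, 2.95%, at a median of 0.11. Scaling by the median ratio shifts the Emx1-Cre split to 328 higher and 278 lower. Over all rule members the counts were 279 of 4016 higher (6.95%) and 632 lower (15.7%) for Emx1-Cre, and 225 of 4047 higher (5.56%) and 285 lower (7.04%) for hGFAP-Cre. For hGFAP-Cre over Emx1-Cre they were 445 of 3736 higher (11.9%) and 292 lower (7.82%). Both contrasts with the control share its cells, so they are given side by side.

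Long transcripts were lower in the mutant libraries, in these cells and in other cell types. Among pericyte-marker members of the Emx1-Cre mutant the median log2 ratio was 0.35 for transcripts under 1500 bases, -0.07 from 1500 to 3000, -0.45 from 3000 to 5000 and -0.53 for longer ones. With hGFAP-Cre the 4 medians were 0.33, 0.06, -0.27 and -0.33. Microglia showed the same order, at 0.40, 0.05, -0.26 and -0.47 in the Emx1-Cre and 0.33, 0.12, -0.10 and -0.28 in the hGFAP-Cre mutant. Endothelial cells were at 0.23, -0.05, -0.17 and -0.21 in the Emx1-Cre mutant, and at 0.13, -0.04, -0.06 and -0.03 in the hGFAP-Cre mutant, where the 3 longer classes lay close together. Genes called lower in the pericyte-marker members of the Emx1-Cre mutant had a median transcript of 4213 bases and those called higher one of 1296.5 bases, against 2883 bases for the rest. Ribosomal protein genes took 14.8%, 18.2% and 16.3% of UMIs. The part of this gradient in each result was not tested, and counts after centring each gene on the median of its length class (length-centred counts) stand beside the lists of long genes.

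**Figure D2:**
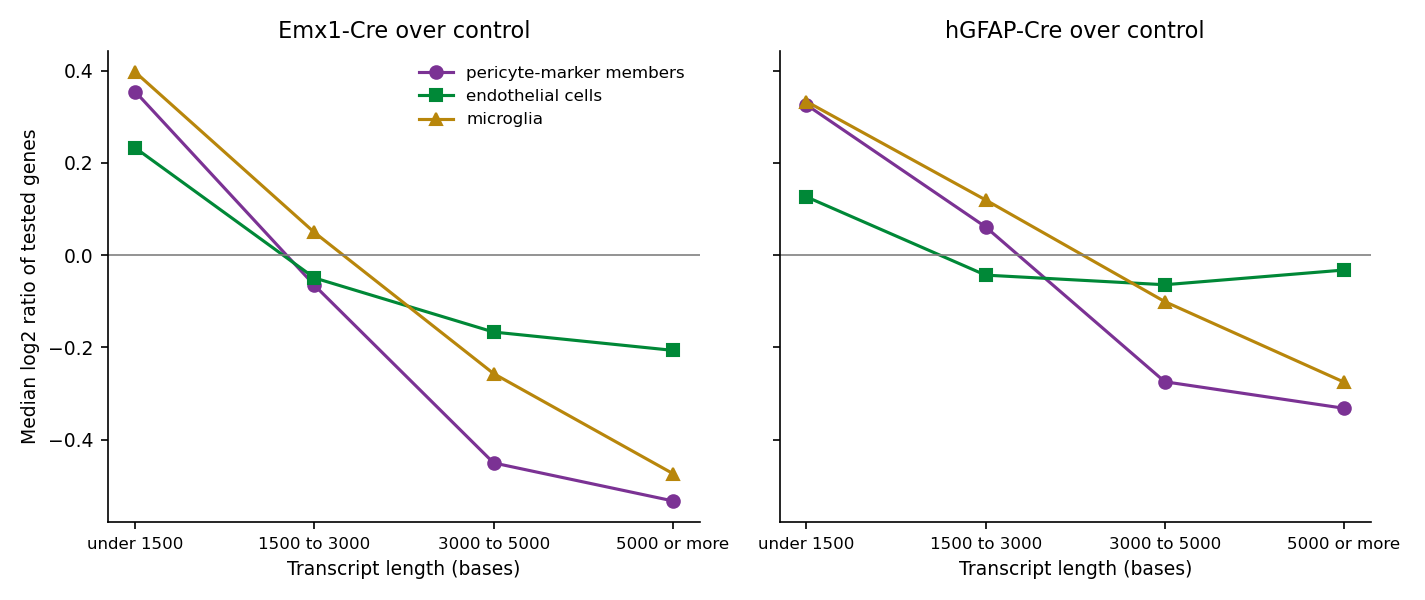
Median log2 ratio to the control (y axis) in 4 classes of transcript length in bases (x axis), for pericyte-marker members, endothelial cells and microglia. The line of the pericyte-marker members falls from 0.35 to -0.53 in the Emx1-Cre mutant and from 0.33 to -0.33 in the hGFAP-Cre mutant.

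Apart from Acta2, the genes that define the rule were at high levels in all 3 libraries and highest in the control. Pdgfrb, the PDGF-B receptor, was at 1279 CPM in control cells (1146 to 1424), 551.5 in Emx1-Cre cells (511 to 595) and 843 in hGFAP-Cre cells (776 to 914). Vtn, which encodes the matrix protein vitronectin, was at 4493, 1331 and 1866 CPM. Rgs5, a regulator of G-protein signalling, was at 5864, 3788 and 3703 CPM, and Kcnj8, a potassium channel subunit, at 1337, 662 and 939 CPM. Higd1b stood at 2174, 1776 and 1449 CPM and Myl9, a myosin light chain, at 963, 568 and 486 CPM. Acta2, smooth muscle actin, was alone in the opposite order, at 15.2, 556 and 152 CPM. These levels also depend on how many of the cells lie near the rule's threshold, so they carry no call.

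Genes of pericyte identity outside the rule were lower in both mutants. Of the 26 listed, 23 reached the minimum level in each contrast with the control. In the Emx1-Cre mutant 11 of the 23 were called lower and 0 higher, against 12.8% and 5.25% of all genes, and the list's median log2 ratio was -1.0 against -0.20 for all genes. In the hGFAP-Cre mutant 9 were lower and 1 higher, with a median of -0.83 against -0.08. The length-centred counts were 8 lower and 0 higher in both contrasts, with medians of -0.74 and -0.79. Over all settings run, the Emx1-Cre median ranged from -1.18 to -0.74, with 8 to 16 genes lower. The hGFAP-Cre median ranged from -0.93 to -0.40, with 6 to 10 genes lower. Between the mutants 1 gene, Anpep, was called higher in the hGFAP-Cre mutant and 1, Gja4, lower, and each of these calls was lost under 5 of 10 alternatives.

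Surface proteins of pericytes led this list. Cspg4, the proteoglycan NG2, stood at 438 CPM in control cells (362 to 526), 119 in Emx1-Cre cells (101 to 140) and 127 in hGFAP-Cre cells (102 to 157). Both mutants were thus well below the control and overlapped each other, at 3.68-fold and 3.44-fold lower. Anpep, the aminopeptidase CD13, stood at 164 (119 to 221), 24.3 (16.4 to 34.7) and 54.4 CPM (38.5 to 74.6), 6.74-fold and 3.01-fold lower. Atp13a5, a P5-type transport ATPase known as a marker of brain pericytes, stood at 343, 59.9 and 113 CPM, 5.72-fold and 3.03-fold lower. Mcam, the adhesion molecule CD146, stood at 647, 202 and 232 CPM, 3.20-fold and 2.79-fold lower. These calls over the control held under every alternative run except Mcam in the hGFAP-Cre mutant, whose log2 ratio of -1.46 became -0.96 without the cells that Scrublet predicts as doublets.

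Receptors and junction genes of the same list followed. Notch3, the NOTCH receptor of mural cells, stood at 438 CPM in control cells, 153 in Emx1-Cre cells and 160 in hGFAP-Cre cells, 2.86-fold and 2.73-fold lower. Its Emx1-Cre call was lost after length centring. The transcription factor gene Foxs1 stood at 263, 105 and 169 CPM and was called lower in the Emx1-Cre mutant only, by 2.50-fold. Gja4, which encodes connexin 37, stood at 366, 207 and 98.7 CPM. The hGFAP-Cre mutant was 3.70-fold below the control and 2.09-fold below the Emx1-Cre mutant. Ifitm1, an interferon-inducible membrane protein, went the other way, at 514 CPM (431 to 608), 851 (800 to 904) and 1288 (1205 to 1375), 2.50-fold higher in the hGFAP-Cre mutant. That call was lost without cycling cells and after length centring. Abcc9 stood at 1146, 684 and 914 CPM with no call.

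Basement membrane genes were also lower. Of 20 listed, 18 reached the minimum level, and 11 were called lower and 0 higher in the Emx1-Cre mutant, with a median log2 ratio of -1.11. With hGFAP-Cre 8 were lower and 0 higher, at a median of -0.97. These are long transcripts, with a median of 6068.5 bases, and after length centring 3 were lower and 1 higher, then 5 lower and 0 higher. Among 17 genes compared between the mutants none was called, and their median was 0.02.

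Both chains of collagen IV, the network of the basement membrane, were among the lower genes. Col4a1 was at 3214 CPM in control cells (3001 to 3438), 1436 in Emx1-Cre cells (1370 to 1504) and 1193 in hGFAP-Cre cells (1114 to 1277). That made it 2.24-fold and 2.69-fold lower, and the Emx1-Cre call was lost under median-ratio scaling and length centring. Col4a2 was at 2117 (1945 to 2301), 794 (745 to 846) and 665 CPM (606 to 729), 2.67-fold and 3.18-fold lower. Its Emx1-Cre call was lost after length centring. Bgn, the small proteoglycan biglycan, was at 838, 310 and 395 CPM, 2.70-fold and 2.12-fold lower, and its hGFAP-Cre call was lost under 4 of 10 alternatives. Nid2 (nidogen-2), which ties laminin to collagen IV, was at 129, 40.5 and 48.6 CPM, 3.20-fold and 2.66-fold lower, with the hGFAP-Cre call lost without cycling cells. Itga1, the collagen-binding integrin subunit, was at 404, 164 and 143 CPM, 2.46-fold and 2.82-fold lower, with the Emx1-Cre call lost without cycling cells and after length centring.

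Not every matrix gene was called. Nid1 stood at 864 CPM in control cells, 462 in Emx1-Cre cells and 750 in hGFAP-Cre cells, and Sparc, a collagen-binding glycoprotein, at 2232, 1186 and 1373 CPM, both without a call. Endothelial cells had 16 genes of the list to compare. With Emx1-Cre 1 of them, Bgn, was called lower (4.87% of all genes compared in endothelial cells were lower), and the median was -0.41. In the hGFAP-Cre mutant 1, Col4a2, was lower (3.79% of all genes), at a median of -0.31. The difference between the cell types was not tested.

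**Figure D3:**
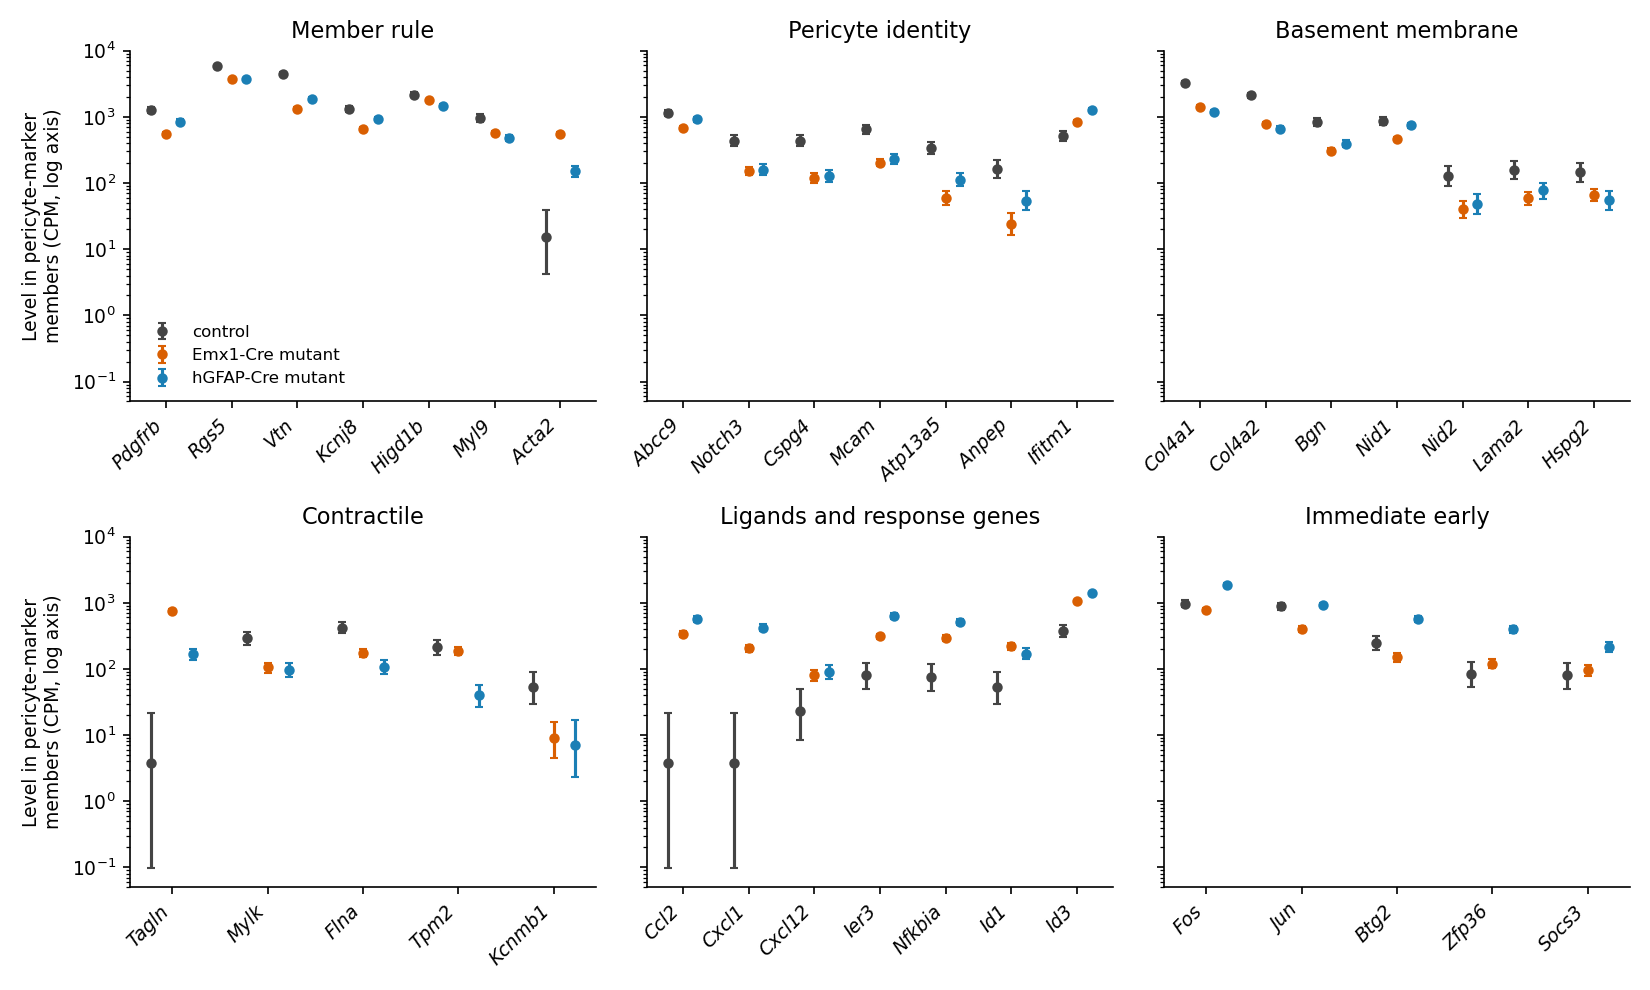
CPM (log axis, with exact Poisson 95% intervals) of chosen genes in pericyte-marker members of the 3 libraries, in 6 panels by group of genes. The identity genes shown, except Ifitm1, and the collagen IV genes stand highest in the control, whereas Ccl2 and Cxcl1 stand at 3.81 CPM there and at 205 to 571 CPM in the mutants.

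Most contractile genes were at low levels, and the calls went both ways. Of 20 listed genes 8 were compared in each contrast. Tagln, a smooth muscle actin-binding protein, was called higher in both mutants. Lower were Mylk, Flna and Kcnmb1 in the Emx1-Cre mutant and Mylk, Tpm2, Flna and Kcnmb1 in the hGFAP-Cre mutant. The list's medians were -0.79 and -1.24, and the length-centred counts were 1 higher and 0 lower, then 1 higher and 3 lower.

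The higher genes came from a minority of cells. Tagln had 1 UMI in 1 cell of the control, or 3.81 CPM (0.0964 to 21.2). It stood at 764 CPM (716 to 814) in the Emx1-Cre mutant, from 58 cells, and at 166 CPM (137 to 199) in the hGFAP-Cre mutant, from 8 cells. With so few control UMIs the ratios of 201 (35.9 to 7929) and 43.6 (7.67 to 1736) have wide intervals. Cells with at least 2 of Tagln, Myh11, Cnn1 and Acta2 were 1 of 37 in control cells (2.70%, exact 95% interval 0.0684 to 14.2), 43 of 203 in Emx1-Cre cells (21.2%, 15.8 to 27.5) and 6 of 114 in hGFAP-Cre cells (5.26%, 1.956 to 11.1). The control interval overlaps that of the hGFAP-Cre mutant and not that of the Emx1-Cre mutant. After thinning each cell to 3000 UMIs, which left out 5, 28 and 0 shallower cells, the shares were 3.12% (0.0791 to 16.2), 18.9% (13.4 to 25.5) and 3.51% (0.964 to 8.74), and the intervals of the control and the Emx1-Cre mutant then overlapped. Among the excitatory neurons they were 0.0233%, 0.517% and 0.511%. The defining smooth muscle genes Myh11 and Cnn1 were at or near 0, with 0, 5 and 4 UMIs of Myh11 and none of Cnn1 in any library. Mature smooth muscle was therefore not detectable as a group among the pericyte-marker members. Smooth muscle cells with fewer than 2 of the 4 pericyte genes lie outside this set by its definition, so these counts do not cover them.

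Within the Emx1-Cre library the 43 contractile cells were set beside the other 160. Of them 37 had a UMI of Abcc9, against 151 of the other 160. A UMI of the fibroblast genes Dcn or Lum was present in 19 of the 43 and in 7 of the 160.

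Mylk and Flna, which pericytes also express, were called lower in both mutants. Mylk, the myosin light chain kinase, stood at 293 CPM in control cells (231 to 366), 105 in Emx1-Cre cells (88.0 to 125) and 97.3 in hGFAP-Cre cells (75.5 to 123). Both mutants lay below the control, by 2.79-fold and 3.01-fold, and the Emx1-Cre call was lost after length centring. Flna, the actin cross-linker filamin A, stood at 419, 176 and 107 CPM, 2.38-fold and 3.90-fold lower. Its Emx1-Cre call, too, was lost after length centring. Tpm2, a tropomyosin, stood at 213, 188 and 40.1 CPM, so that the hGFAP-Cre mutant alone was low, 5.32-fold below the control and 4.69-fold below the Emx1-Cre mutant.

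Chemokine genes differed widely between the control and both mutants. Ccl2 (ENSMUSG00000035385, GRCm38 chromosome 11, 82035571 to 82037453, plus strand) encodes a chemokine that attracts monocytes. Cxcl1 (ENSMUSG00000029380, chromosome 5, 90891241 to 90893115, plus strand) and Cxcl2 (ENSMUSG00000058427, chromosome 5, 90903871 to 90905938, plus strand) encode chemokines that attract neutrophils and are known targets of the transcription factor NF-kappaB. A match to the NF-kappaB consensus lies shortly before the start of both. No promoter window was available for Ccl2, so its promoter was not searched. Cxcl1 was called higher in both mutants and Cxcl2 in the hGFAP-Cre mutant. Both matches are shown here in capitals in 30 bases of the plus strand from RefSeq (GRCm38.p6), at chr5:90891164-90891193 and chr5:90903792-90903821.
Cxcl1: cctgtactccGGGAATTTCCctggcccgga
Cxcl2: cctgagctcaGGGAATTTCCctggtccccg
The consensus, searched on both strands in windows from 250 bases before to 50 bases after each start, was present in 9.55% of 27025 promoters and in 12.6% of the 3238 windows of genes that were compared. Of the 95 genes called higher in both mutants, 73 had a window and 7 of these held the consensus, 9.59%. Of the 234 genes called lower in both, 177 had a window and 26 held it, 14.7%. Both shares lay within a few percentage points of that among the compared genes.

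Ccl2 and Cxcl1 were almost absent from the control cells. Ccl2 had 1 UMI in 1 of 37 control cells, or 3.81 CPM (0.0964 to 21.2), 419 UMIs in 61 of 203 cells of the Emx1-Cre mutant, or 339 CPM (308 to 373), and 399 UMIs in 47 of 114 cells of the hGFAP-Cre mutant, or 571 CPM (516 to 630). The ratios to the control were 89.1 (15.9 to 3528) and 150 (26.8 to 5935). Cxcl1 also had 1 UMI in 1 control cell, and stood at 205 CPM (180 to 232) from 81 cells and at 422 CPM (375 to 473) from 54 cells in the mutants. Its ratios were 53.8 (9.57 to 2133) and 111 (19.7 to 4392), and the hGFAP-Cre mutant was 2.06-fold above the Emx1-Cre mutant, a call lost under 4 of 10 alternatives. Cxcl2 had no UMI in the control, where 3 counts would be 11.4 CPM, and stood at 17.0 and 119 CPM in the mutants, so that the hGFAP-Cre mutant was at least 10.4-fold higher. The calls of Ccl2 and Cxcl1 over the control held under every alternative run.

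Counted by cell, Ccl2 or Cxcl1 had a UMI in 2 of 37 control members (5.41%, 0.661 to 18.2), 105 of 203 in the Emx1-Cre mutant (51.7%, 44.6 to 58.8) and 69 of 114 in the hGFAP-Cre mutant (60.5%, 50.9 to 69.6). After thinning the shares were 3.12%, 43.4% and 53.5%. The mutants overlapped each other and lay apart from the control. Among excitatory neurons 0.279%, 0.841% and 0.596% had such a UMI, and among endothelial cells 3.19%, 4.76% and 8.89%. Microglia, which also make these chemokines, stood at 24.8%, 32.9% and 39.4%, with medians of 11137, 5458 and 7176 UMIs. After thinning, microglia stood at 15.9% (11.7 to 20.9), 25.6% (20.5 to 31.2) and 30.4% (25.7 to 35.5). Their hGFAP-Cre interval then lay apart from that of the control, and their Emx1-Cre interval overlapped it. Endothelial cells stood at 0%, 0% and 2.22% after thinning. Endothelial cells had no UMI of Ccl2 in any library. Within the Emx1-Cre library the chemokine share was 86.0% among the 43 contractile cells and 42.5% among the other 160. In the hGFAP-Cre library 11 of the 69 chemokine cells bore several neural genes, defined below, against 15 of the 45 others.

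Ier3 and Nfkbia were called higher in both mutants as well. Ier3, an early response gene induced by NF-kappaB and by ERK, stood at 80.0 CPM in control cells (49.5 to 122), 310 in Emx1-Cre cells (280 to 343) and 634 in hGFAP-Cre cells (576 to 696), 3.88-fold and 7.93-fold higher. Nfkbia, the NF-kappaB inhibitor that NF-kappaB itself induces, was chosen for naming after its values were seen and stood at 76.2, 291 and 514 CPM, 3.82-fold and 6.74-fold higher. Both were ordered control, Emx1-Cre, hGFAP-Cre with intervals apart at each step. In endothelial cells Ier3 was at 111, 246 and 280 CPM and called higher in both mutants (2.3% of all genes compared in endothelial cells were higher with Emx1-Cre and 4.03% with hGFAP-Cre), whereas Nfkbia was at 529, 548 and 1007 CPM without a call. In microglia Ier3 was at 468, 523 and 538 CPM.

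Over the whole list of 22 angiogenic and chemotactic ligands, 7 were compared in the Emx1-Cre mutant, with 3 higher (Cxcl12, Ccl2 and Cxcl1) and 0 lower at a median of 0.57. With hGFAP-Cre 8 were compared, with 4 higher and 0 lower at a median of 1.20, the fourth being Igfbp5. Over all settings run, the Emx1-Cre median ranged from -0.32 to 0.79 and the hGFAP-Cre median from 0.069 to 1.28. Cxcl12, a chemokine that guides migrating cells, stood at 22.8, 80.2 and 90.1 CPM, but 66.7% of its 6 control UMIs came from 1 cell and both calls were lost without cycling cells. Igfbp5, an IGF-binding protein, stood at 38.1, 33.2 and 129 CPM, and its call was lost without the predicted doublets. The most abundant ligand, Ptn (pleiotrophin), was named after its values were seen and stood at 4924, 4158 and 3743 CPM with no call. Igf2, a growth factor, stood at 605, 329 and 421 CPM, again with no call.

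Id1 and Id3, targets of BMP signalling that block differentiation factors, were called higher in both mutants. In the list of 23 TGF-beta and BMP genes 8 were compared in the Emx1-Cre mutant. Id1, Id2 and Id3 were called higher, Tgfb1, Eng and Bmpr1a lower, and the median was 0.27. Each of the lower calls was lost under at least 1 alternative. With hGFAP-Cre 12 were compared, with Id1 and Id3 higher, 0 lower and a median of 0.73. Id3 stood at 377 CPM (306 to 459), 1060 (1003 to 1119) and 1386 (1300 to 1476), 2.81-fold and 3.68-fold higher. Id1 stood at 53.3, 219 and 170 CPM, 4.10-fold and 3.19-fold higher. Without members that bore several neural genes the Emx1-Cre call of Id3 (log2 ratio 0.99) and the hGFAP-Cre call of Id1 (0.94) were lost. In endothelial cells Id3 was at 591, 1017 and 1106 CPM.

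The targeted genes themselves showed no lower level in these cells. Map2k1 stood at 38.1 CPM in control cells (18.3 to 70), 45.3 in Emx1-Cre cells (34.3 to 58.9) and 42.9 in hGFAP-Cre cells (29.0 to 61.3), below the level at which genes were compared. Map2k2 stood at 156, 200 and 215 CPM, without a call. A 3' tag reads the transcript's end, so these levels check the deletion only where it removes that end, which the labels do not say. Over all kept cells Map2k1 was at 16.7, 14 and 16.4 CPM.

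ERK response genes, the feedback regulators and cyclins that ERK activity induces, were called in both directions. Of 21 listed genes 10 were compared in the Emx1-Cre mutant, with Ier3 higher, Spry4, Spred2 and Dusp6 lower, and a median of -0.47. With hGFAP-Cre 11 were compared, with Ier3 higher, Spred2 and Ccnd1 lower, and a median of -0.19. Of all genes 5.25% were higher and 12.8% lower with Emx1-Cre, and 5.49% and 8.81% with hGFAP-Cre. These few calls are given as a description. Spred2, an inhibitor of RAS signalling, stood at 80.0, 24.3 and 24.3 CPM, 3.29-fold lower in both. Dusp6, the ERK phosphatase, stood at 103, 47.0 and 65.8 CPM, and Spry4 at 122, 52.6 and 73.0 CPM. The Emx1-Cre calls of Dusp6 and Spry4 were lost after length centring. Spry1, another feedback inhibitor, stood at 133, 91.5 and 227 CPM, 2.49-fold higher in the hGFAP-Cre than in the Emx1-Cre mutant. Among the 16 genes of the ERK cascade 11 were compared in each contrast, and Araf alone was called, lower in both at 91.4, 31.6 and 40.1 CPM, the hGFAP-Cre call being lost under 5 of 10 alternatives. Of 12 genes of the PDGF pathway 6 were compared and none was called in either mutant.

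Immediate early genes set the 2 mutants apart. These genes answer within minutes to stimulation, and also to tissue dissociation. In the Emx1-Cre mutant over the control 1 of 16 compared genes was called, Jun, lower, with a list median of -0.29, and this call was lost after length centring. With hGFAP-Cre over the control 5 of 17 were higher (Jund, Atf3, Btg2, Zfp36 and Socs3), Hspa1b was lower, and the median was 0.74. In that contrast 5.49% of all genes were higher and 8.81% lower. Between the mutants 9 of 16 were higher in the hGFAP-Cre mutant and 0 lower, at a median of 1.01, against 2.98% and 2.95% of all genes. Fos stood at 975 CPM (859 to 1102), 778 (730 to 829) and 1853 (1753 to 1956), 2.38-fold higher in the hGFAP-Cre than in the Emx1-Cre mutant. Btg2, an antiproliferative early gene, stood at 248, 149 and 567 CPM, 2.29-fold above the control and 3.80-fold above the Emx1-Cre mutant. Zfp36, which destabilises cytokine mRNAs, stood at 83.8, 121 and 399 CPM, 4.76-fold and 3.31-fold higher. Socs3, the feedback inhibitor of cytokine receptors, stood at 80.0, 95.6 and 216 CPM, 2.70-fold and 2.26-fold higher.

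The same list was higher in other cell types of the hGFAP-Cre library. In its endothelial cells 6 of 17 genes were higher than in the control and 0 lower, with the same median of 0.74. Of all genes compared in endothelial cells 4.03% were higher and 3.79% lower. In its microglia 1 of 14 was higher (4.79% of all genes) and the median was 0.23. Whether handling of the libraries differed was not tested. Without cycling cells the calls of Jund, Atf3 and Socs3 over the control were lost.

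Cycling cells were scarce in the hGFAP-Cre mutant. Mki67 or Top2a, genes of dividing cells, had a UMI in 10 of 37 control members (27.0%, 13.8 to 44.1), 54 of 203 in the Emx1-Cre (26.6%, 20.7 to 33.2) and 9 of 114 in the hGFAP-Cre mutant (7.89%, 3.67 to 14.5). After thinning the shares were 31.2%, 26.9% and 6.14%. The hGFAP-Cre interval overlapped that of the control by a narrow margin and lay apart from that of the Emx1-Cre mutant. Without cells that bore several neural genes its share was 3.41%, and without predicted doublets 2.50%. With at least 2000 detected genes per cell the 3 shares were 30%, 42.3% and 15.8%. Among excitatory neurons 5.01%, 6.40% and 4.06% had such a UMI. Endothelial cells, at a median of 12301.5, 6800.5 and 7017 UMIs, stood at 27.7%, 23.8% and 6.67%, and at 16.1%, 21.4% and 6.67% after thinning. Microglia stood at 20.8%, 15.5% and 18.9%.

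The G2/M list was low with hGFAP-Cre. With hGFAP-Cre all 17 compared genes were called lower than in the control, at a median log2 ratio of -2.81, and all 12 compared with the Emx1-Cre mutant were lower, at -2.28. With Emx1-Cre 5 of 17 were lower than in the control, at a median of -0.64, and 2 after length centring. Mki67 stood at 347 CPM (279 to 425), 62.4 (49.2 to 77.9) and 20.03 (10.95 to 33.6), so the 3 libraries did not overlap. It was 5.56-fold lower in the Emx1-Cre mutant, where 18.7% of cells had a UMI of it against 24.3% in the control. Cenpf, a kinetochore protein gene, stood at 183, 116 and 10.0 CPM, 18.3-fold lower in the hGFAP-Cre mutant. Of the S phase genes 4 of 9 were below the control in hGFAP-Cre cells (Mcm3, Tyms, Rrm1 and Rrm2), at a median of -0.54. In the Emx1-Cre mutant 1 of 12 was higher (Mcm6) and 1 lower (Rrm1), at a median of 0.35. The control values rest on 9 cells with a UMI of Mki67. Among endothelial cells 3 of 10 G2/M genes were lower with hGFAP-Cre (3.79% of all genes), at a median of -0.86. In microglia 0 of 10 were lower (4.98% of all genes), at -0.17.

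**Figure D4:**
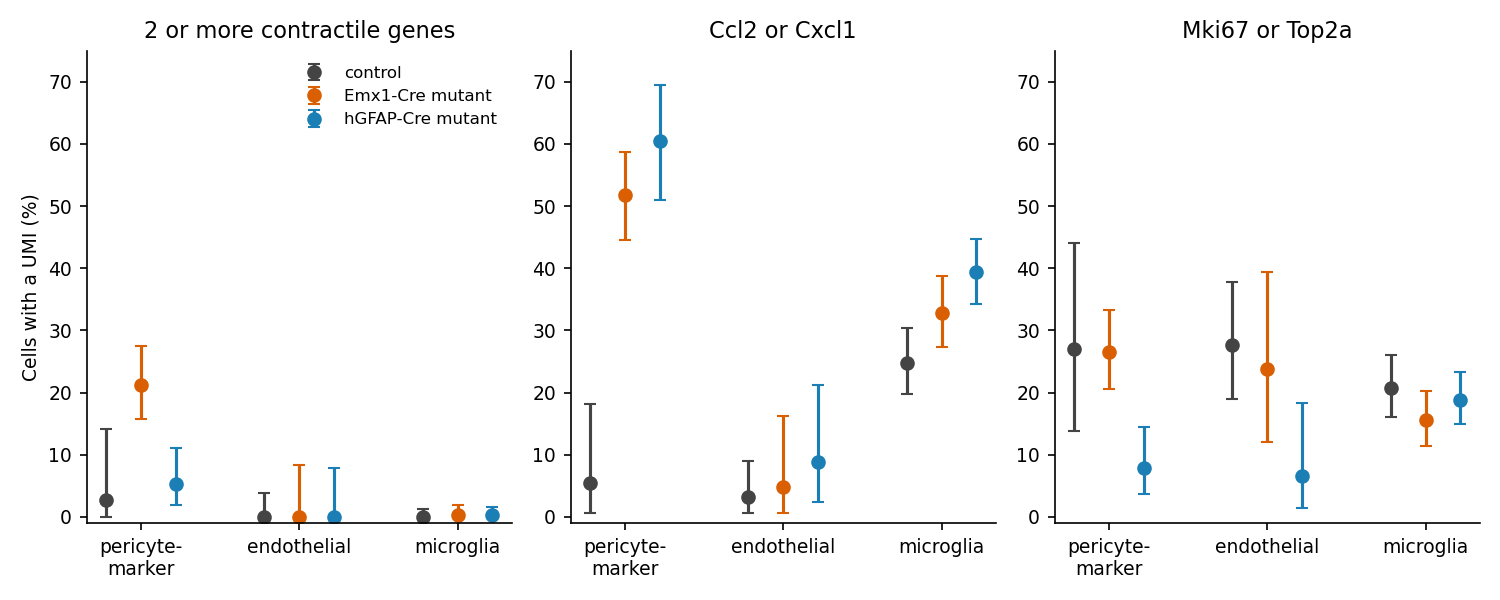
Percent of cells (with exact 95% intervals) that had at least 2 contractile genes, Ccl2 or Cxcl1, and Mki67 or Top2a, among pericyte-marker members, endothelial cells and microglia of the 3 libraries. The chemokine share is 5.41% in the control and above 50% in both mutants, and the cycling share is 7.89% in the hGFAP-Cre mutant against 27.0% and 26.6%.

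Outside the lists, some secreted and signalling genes were low in both mutants. Pth1r, the receptor of parathyroid hormone, stood at 305 CPM (242 to 379), 70.5 (56.4 to 86.9) and 34.3 (22.0 to 51.1), 4.32-fold and 8.87-fold lower. Postn, the matrix protein periostin, stood at 228, 38.9 and 62.9 CPM, 5.88-fold and 3.63-fold lower. Sod3, the extracellular superoxide dismutase, stood at 263, 41.3 and 67.2 CPM, 6.36-fold and 3.91-fold lower. Plxdc1 stood at 118, 17.8 and 24.3 CPM, 6.63-fold and 4.85-fold lower, and Itpr2, a calcium release channel, at 217, 36.4 and 78.7 CPM, 5.96-fold and 2.76-fold lower. In each of these the control stood above both mutants with intervals apart, and each call held under every alternative run. The replication-linked histone gene Hist1h2ap stood at 784, 123 and 70.1 CPM, though reads of near-identical histone genes can be split between copies, and its calls were lost without cycling cells.

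Other genes were high in both mutants or in 1 of them. Mt2, a metal-binding stress protein, had 2 UMIs in the control, or 7.62 CPM (0.922 to 27.5), against 309 and 280 CPM, ratios of 40.6 (11.2 to 337) and 36.8 (10.1 to 306). It was also higher in endothelial cells, at 9.40, 65.0 and 187 CPM. Ctsk, the protease cathepsin K, also had 2 control UMIs, against 79.4 and 133 CPM, ratios of 10.4 (2.81 to 87.3) and 17.5 (4.70 to 146). It had a UMI in 5.41%, 26.1% and 48.2% of the members and stood below 3 CPM in endothelial cells of every library. Rgs16, a G-protein regulator induced by inflammatory signals, stood at 26.7, 62.4 and 292 CPM, 10.9-fold higher in the hGFAP-Cre mutant than in the control and 4.68-fold higher than in the Emx1-Cre mutant. Mest, an imprinted gene of the mesoderm, stood at 183, 219 and 38.6 CPM, 4.73-fold lower in the hGFAP-Cre mutant than in the control. S100a10 had no UMI in the control and stood at 193 CPM, from 47 cells, in the Emx1-Cre mutant, at least 16.9-fold higher.

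**Figure D5:**
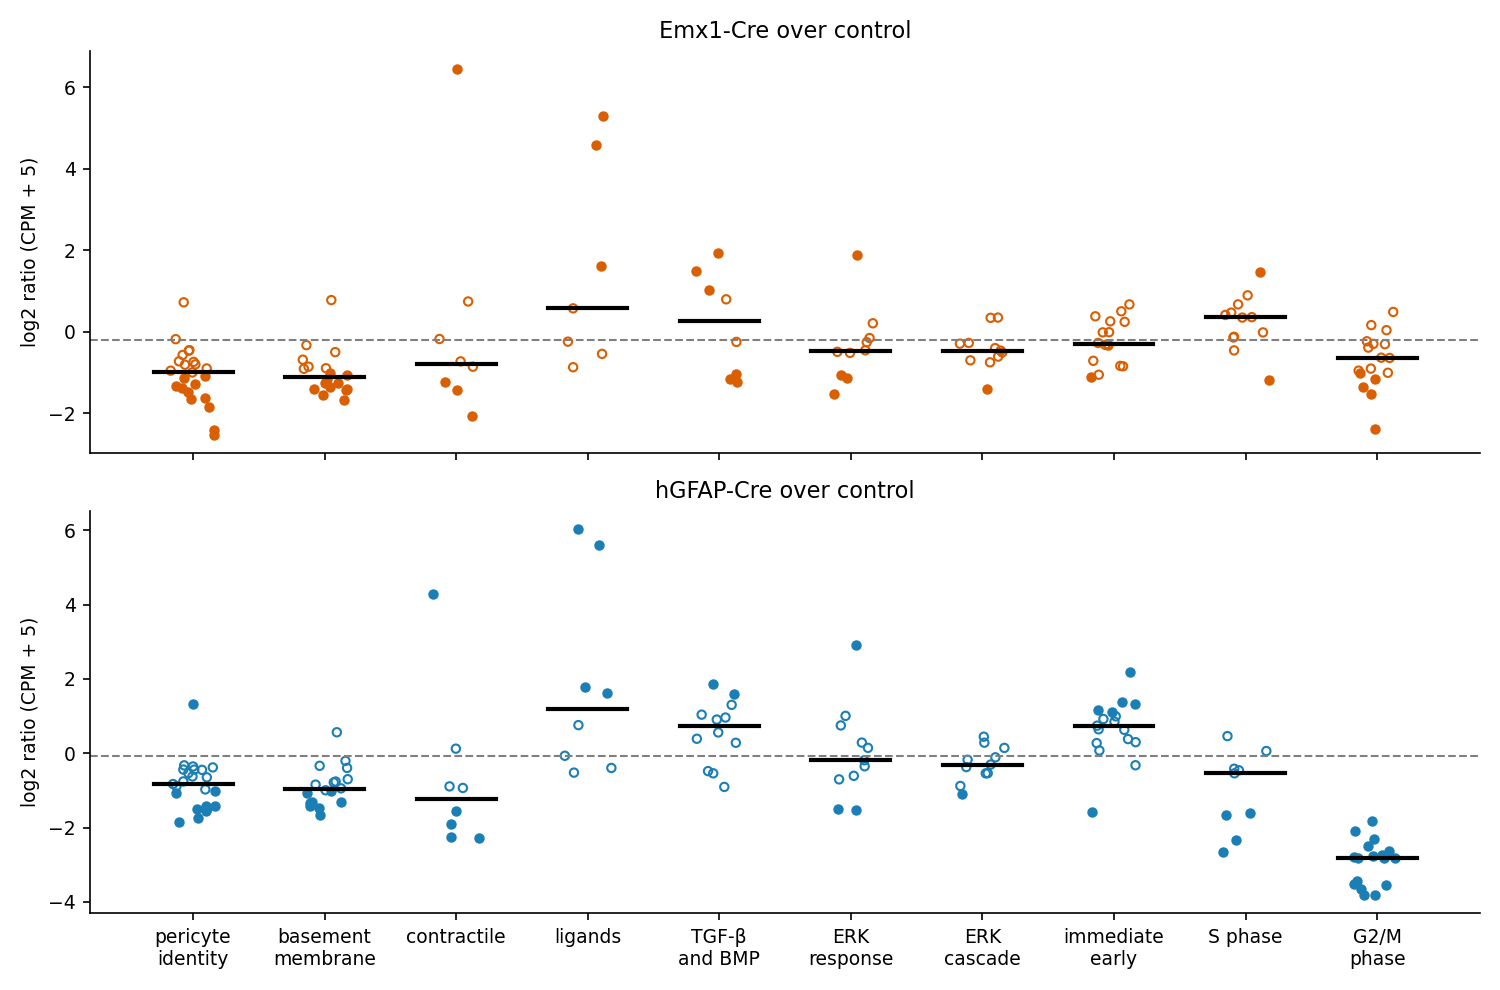
Log2 ratio over the control (y axis, with 5 CPM added to both levels) of each compared gene of 10 lists (x axis) in pericyte-marker members, with the Emx1-Cre contrast in the upper panel and the hGFAP-Cre contrast in the lower. Filled points are called, black bars are list medians and the dashed line is the median of all compared genes. The G2/M genes lie lowest in the hGFAP-Cre panel, at a median of -2.81, and the medians of pericyte identity and basement membrane genes lie below the dashed line in both panels.

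Fibroblast genes moved in both directions. Vascular and meningeal fibroblasts share collagen genes with pericytes, and no fibroblast gene was part of the rule. Of 15 listed genes 8 were compared in the Emx1-Cre mutant, with Dcn, Lum, Mgp and Igfbp2 higher and Col1a1 and Fbln1 lower, at a median of 1.21. With hGFAP-Cre 6 were compared, with Igfbp2 higher and Col1a1 and Fbln1 lower, at 0.15. Col1a1, a chain of fibrillar collagen I, stood at 674 CPM (578 to 781), 174 (152 to 199) and 64.4 (47.0 to 86.1), 3.87-fold and 10.5-fold lower. It had a UMI in 86.5%, 28.6% and 12.3% of the members. Fbln1, the matrix protein fibulin-1, stood at 194, 63.2 and 25.8 CPM, 3.07-fold and 7.54-fold lower. The proteoglycan genes Dcn and Lum, which mark fibroblasts rather than pericytes, were rare: a UMI of either was found in 2, 26 and 7 members. In the Emx1-Cre library Ccl2 or Cxcl1 had a UMI in 24 of these 26 and in 81 of the other 177. Without the Dcn or Lum cells the Emx1-Cre list median was -0.23. Dcn and Lum are on the list, so leaving out these cells removes both by construction, and no conclusion is drawn from this. Summed over the 15 genes the level was 1615, 1724 and 1076 CPM, with Lum at 0 in the control. The part of fibroblast-like cells in the results was not tested.

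The other lists held few calls. The NOTCH pathway had 6 and 8 compared genes of 15, with Notch1 lower in both mutants and medians of -0.60 and -0.05. Interferon response genes had 4 and 5 of 19, with 0 called and medians of 0.36 and 0.29. Hypoxia and glycolysis genes had 8 of 19 in each, with 1 and 0 lower, 0 higher and medians of -0.41 and -0.69. Among p53 and apoptosis genes 1 and 3 of 16 were compared, with Bax higher in the Emx1-Cre and Cdkn1a higher in the hGFAP-Cre mutant, the latter not without predicted doublets. Most genes of these 4 lists were below the minimum level in the members.

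Genes of neural cells were present in the members, and glial genes were mostly higher in the mutants. The 11 glial genes summed to 1002, 3241 and 2966 CPM. Of 5 compared in the Emx1-Cre mutant 3 were higher and 1, Sox2, lower than in the control, and of 7 in the hGFAP-Cre mutant 5 were higher and 0 lower. Fabp7, a fatty acid-binding protein of radial glia, stood at 678 CPM in control cells, 2753 in Emx1-Cre cells and 1920 in hGFAP-Cre cells. Members with at least 2 UMIs each of 3 or more of 8 neural genes were 5 of 37, 34 of 203 and 26 of 114. The 8 genes were Neurod6, Neurod2, Stmn2, Tubb3, Slc1a3, Aldoc, Ptprz1 and Fabp7. Without those members Fabp7 turned to the opposite direction, at log2 ratios of -0.25 and -1.18. Fabp7 helped to pick them, so leaving them out lowers it by construction, and no conclusion is drawn from this. The 10 excitatory neuron genes summed to 712, 1104 and 1086 CPM, with 0 of 4 and 0 of 5 compared genes called higher and Neurod2 lower in the Emx1-Cre mutant. The 6 ependymal genes summed to 0, 669 and 107 CPM. In the Emx1-Cre mutant over the control 4 to 6 of them were compared, depending on the setting. Of these, 4 to 6 were called higher and 0 lower, at list medians from 2.40 to 4.44. In the hGFAP-Cre over the Emx1-Cre mutant 4 to 5 were lower and 0 higher, at list medians from -3.76 to -2.20. Scrublet predicted 8.11%, 19.7% and 29.8% of the members as doublets, against 4.44%, 7.64% and 8.71% of all kept cells. The 12 endothelial genes summed to 792, 475 and 393 CPM, with Cldn5, barred by the rule, and Pecam1 at 0 in every library. The microglial genes summed to 30.5, 25.9 and 40.1 CPM, with C1qa, barred by the rule, and C1qb at 0.

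One gene of another origin stood out in the hGFAP-Cre library. Prm1, which encodes a sperm protamine and is also part of common transgene constructs, had no UMI in pericyte-marker members of the control or the Emx1-Cre mutant. It stood at 220 CPM (187 to 258) in 20 of 114 members of the hGFAP-Cre mutant, at least 19.3-fold above the control and at least 90.7-fold above the Emx1-Cre mutant. Of the 26 members there with several neural genes 16 had a UMI of it, against 4 of the other 88. In all kept cells outside the members it stood at 0, 0.0364 and 558 CPM, with a UMI in 39.1% of them in the hGFAP-Cre library. In endothelial cells of that library it was at 88.4 CPM and in microglia at 64.2 CPM. Which element of that mouse line carries it is not stated in the labels.

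The other members, which had fewer than 2 pericyte genes, differed between libraries. In the control all 57 had a UMI of Slc1a3, and Fabp7 stood at 25191 CPM. Rgs5 was at 129 CPM, in 87.7% of cells, and Vtn, Kcnj8, Higd1b and Abcc9 were all at 0. Acta2 had a UMI in 8 of the 57. The rule needs 2 markers, so the cells without Acta2 entered through Rgs5 together with Myl9. In the hGFAP-Cre library 97.1% of the 208 had Slc1a3 and Fabp7 stood at 14327 CPM. They entered through Acta2, at 346 CPM in 95.2% of cells, and Myl9, in 99.5%. Prm1 stood at 1551 CPM in 98.1% of them and Foxj1, the regulator of motile cilia, had a UMI in 59.6%. Abcc9 had 1 UMI in all. In all kept cells outside the members Acta2 stood at 1.30, 26.7 and 29.1 CPM.

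The 25 other members of the Emx1-Cre library were unlike both. Of these, 15 (60%) had a UMI of at least 2 fibroblast genes of Col1a1, Dcn, Lum and Col3a1, against 64.9%, 28.6% and 12.3% of the pericyte-marker members by library. Among the 25, Col1a1 was at 640, Dcn at 455 and Lum at 385 CPM. Vtn was at 271 CPM in 52% of them and Acta2 at 577 CPM in 68%. With 2 of the 4 pericyte genes required, the Emx1-Cre share was above the hGFAP-Cre share, and with any 2 of the 6 markers it was below it. No cell type name is given to the other members.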

How the data were processed

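The authors deposited unnormalised UMI counts, genes by barcodes, for each of the 3 libraries. Cell Ranger 5.0.0 wrote them per the file headers, on build mm10 per the submitters' processing notes. Of 27998 gene identifiers 27722 matched GENCODE vM21 on GRCm38, which gave positions and transcript lengths. Counts were summed over the cells of a set and library. Intervals were exact Poisson for levels and Clopper-Pearson for shares, at 95%, and cover counting error only, since UMIs of 1 library hold no replicate. The floor of a count of 0 was 3 counts. Python 3.11.15, numpy 2.4.6, scipy 1.17.1, pandas 2.3.3, scanpy 1.11.5 and matplotlib 3.10.9 were used, and the calling step was tested on simulated data.

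The members and the 26 gene lists were chosen with earlier results of these data known. Doublets were left in, and Scrublet's calls (expected rate 10%) were an alternative. Endothelial cells, microglia and excitatory neurons were picked by markers and not by clustering. Named were the rule's 7 genes, Map2k1 and Map2k2, up to 4 genes per described list and contrast with the largest ratio, and from the remaining genes the top 6 and bottom 6 of each contrast at 100 CPM or more with intervals apart, leaving out sex-linked, mitochondrial, ribosomal protein, haemoglobin and predicted genes. A single gene among those this rule names is not reported here. Genes named to complete a group, after their values were seen, were Notch3, Nfkbia, Id2, Ptn, Sparc, Myh11 and Cnn1. For all rule members the alternatives changed the cell filters, the rule, depth, pseudocount, minimum level and scaling. The gene calls and lists of the pericyte-marker members had 10 alternatives. These left out cells with several neural genes, predicted doublets, Dcn or Lum cells, cycling cells, contractile cells or cells under 3100 UMIs. The rest changed the pseudocount or scaling, centred by length or averaged over cells. Thinning, the marker rule and the minimum level were not varied for those calls.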

Additional observations from a re-analysis of the deposited data

How the results depend on the processing

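With 1 library per genotype, library, batch, sex and genotype cannot be told apart, and the control values rest on 37 pericyte-marker members. No paired analysis was possible because no genotype had a second library. All alternatives for the pericyte-marker members taken as a set were chosen after seeing the data, and the cause of the changes below was not tested. Their share over the control kept its direction in every alternative. Of 60 gene counts 51 stayed within 1.5 times. In the Emx1-Cre mutant over the control the lower genes became 318 with a pseudocount of 20 CPM, 278 with median-ratio scaling (328 higher) and 224 after length centring. In the hGFAP-Cre over the Emx1-Cre mutant the higher genes became 169 without predicted doublets, 53 with the larger pseudocount, 63 with median-ratio scaling and 63 after length centring, and the lower genes 66 without cycling cells. A list median was counted as turned only if its main log2 ratio was at least 1 in size. Smaller medians that changed sign are not in that count. Among them, in the Emx1-Cre mutant over the control, were the ligand list (-0.32 to 0.79) and the TGF-beta and BMP list (-0.28 to 0.70). The PDGF list there ran from -0.31 to 0.46. Of 1630 values of called genes and 591 list medians 6 and 3 turned to the opposite direction. Without neural-gene members, picked in part by Fabp7 itself, Fabp7 was at -0.25 (Emx1-Cre) and -1.18 (hGFAP-Cre over control). Over the Emx1-Cre mutant Cdkn1a then was at -1.54 and the glia list at -0.58. Without predicted doublets Cdkn1a was at -0.31 over the control and -1.51 over the Emx1-Cre mutant. The fibroblast list (Emx1-Cre over control) was at -0.23 without Dcn or Lum cells, which genes of that list picked, and at -0.25 without contractile cells. Ccl11 (hGFAP-Cre over Emx1-Cre) was at 0.36 without Dcn or Lum cells.

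All rule members depended more on the rule. The log2 ratio of their share in the Emx1-Cre mutant over the control, 0.87, became -1.28 with 1 of 6 markers, 2.05 with 2 of the 4 pericyte markers, 2.10 with 3 of 6, 1.60 after thinning before the rule and 2.13 without neural-gene members. That of the hGFAP-Cre mutant, 1.38, became 0.28 with 1 of 6 markers, 1.73 without fibroblast-marker members and 0.81 as a share of members and endothelial cells. The 279 higher genes of the Emx1-Cre mutant over the control became 151 with 3 of 6 markers, 467 with 1 of 6, 112 after thinning, 512 without fibroblast-marker members, 419 with median-ratio scaling and 510 over all genes with a UMI. The 632 lower ones became 319 after thinning, 1257 over all genes and 328 at 100 CPM or more. For the hGFAP-Cre mutant over the control the 225 higher became 116 after thinning, 567 over all genes and 137 at 100 CPM, and the 285 lower 157 with 1 of 6 markers, 170 with a pseudocount of 20 CPM, 671 over all genes and 149 at 100 CPM. For the hGFAP-Cre over the Emx1-Cre mutant the 445 higher and 292 lower became 107 and 106 with 2 of 4 pericyte markers, 158 and 111 with 3 of 6, 193 and 85 after thinning, 129 and 116 without neural-gene members, 1023 and 652 over all genes and 233 and 162 at 100 CPM, and the lower 187 by the mean of cells. Of 192 list medians 10 turned, counted in the same way. Medians under 1 in size that changed sign are again not in the count. In the Emx1-Cre mutant over the control pericyte identity ran from -1.11 to 2.15 and basement membrane from -1.15 to 2.04. There contractile genes ran from -0.95 to 2.04 and G2/M genes from -0.66 to 1.16. The turned medians were as follows. Pericyte identity (hGFAP-Cre over control, -1.21) was at 0.039 with 1 of 6 markers, and contractile (-1.22) at 0.76 there, 1.19 without fibroblast-marker members and 0.33 at 100 CPM. Between the mutants pericyte identity (-1.49) was at 0.25 with 2 of 4 pericyte markers, 0.073 with 3 of 6, 0.21 after thinning and 0.42 without neural-gene members, and basement membrane (-1.38) at 0.020 with 2 of 4 and 0.13 without neural-gene members.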
